A study of Mus musculus with 2 samples.

Results

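The regions described here are the non-promoter accessibility peaks around 25 cytokine and effector genes, namely Il17a, Il17f, Il22, Ifng, Il4, Il5, Il13, Il10, Il21, Il2, Csf2, Il3, Tnf, Lta, Ltb, Tgfb1, Ccl3, Ccl4, Ccl5, Ccl20, Xcl1, Areg, Gzmb, Il17rb and Il23r. A peak was taken when it lay within 100 kb of, and more than 1 kb from, the start-site interval that the deposited tables give for one of these genes. This rule took 386 of the 83851 peaks of the control library and 385 of the 85738 peaks of the knockout library. Peaks had been called separately in each library, so overlapping peaks were joined into matched sites. Of the chosen peaks, 344 control and 343 knockout peaks formed 343 matched sites, out of 73219 matched sites in all. Another 42 control and 41 knockout peaks had no partner in the other library, and 1 knockout peak overlapped a control peak outside the limits. Genes whose 100 kb windows overlapped were grouped, which gave 16 loci. Of the 343 sites, 189 were intergenic, 67 lay in introns and 87 overlapped an exon of the GENCODE annotation. The sites that overlapped exons included 41 of the 52 sites within 1 kb of the start of an unlisted gene, so the set holds promoters of neighbouring genes as well as distal sites.

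Cytokine genes are controlled in large part by enhancers, stretches of DNA away from the promoter that bind transcription factors and become open in the cell types able to make the cytokine. In helper T cells the Th1 cytokine gene Ifng, the Th2 cluster of Il4, Il5 and Il13, and the type 17 genes Il17a and Il17f each have such distal elements. Those of the Th2 cluster include a locus control region inside Rad50, a DNA repair gene that lies between Il5 and Il13. Innate lymphoid cells (ILC) lack an antigen receptor but make many of the same cytokines, and group 3 ILC of the gut are a main source of IL-22 and GM-CSF. Regulatory T cells, which express Foxp3, restrain inflammation partly through IL-10. Transposase inserts adapters into open DNA, so the number of sequenced fragments in a peak measures how open it is in the nuclei counted.

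The nuclei were those of effector CD4+ T cells taken from the gut of mice aged 26 to 33 weeks, and RNA and accessibility were read from the same nuclei with the 10x Multiome kit. Mice of the control group were Zfp362flox/flox, whose alleles carry loxP sites but no Cre, and mice of the knockout group were CD4creZfp362flox/flox, where Cre is driven by Cd4 regulatory sequence and removes the flanked part of the zinc-finger gene Zfp362. Both groups thus share the floxed alleles, and Cre is present in the knockout group alone. Cells of colon and small intestine were pooled and sorted for CD4 and CD44 and against CD62L, F4/80, CD45R, CD11c and CD8a. The design text gives 7 mice, and it is unclear if that number is per genotype. Each genotype had 1 library of pooled cells. No test across samples was therefore possible. The 95% intervals below cover counting error only, and the libraries serve as 2 separate measurements of each difference between classes of nuclei. Differences between the libraries have no replicate check, and genotype cannot be told apart from any other difference between the libraries.

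Nuclei were put into 3 classes by their RNA. Foxp3-positive nuclei had at least 1 unique molecular identifier (UMI) of Foxp3, other Cd3-positive nuclei had none of Foxp3 but at least 1 of the 3 antigen receptor complex genes Cd3d, Cd3e and Cd3g, and Cd3-negative nuclei had none of these. There were 420, 2111 and 1645 such nuclei in the control library and 249, 1164 and 933 in the knockout library, with median depths of 2575.5, 2101 and 1852 UMIs and of 4297, 2747.5 and 1993 UMIs. Peaks held 2279187, 8445077 and 5532801 fragments in the control and 3696102, 9341066 and 4790671 fragments in the knockout library. Nuclei with over 2 times their library's median UMI count made up 28.8%, 15.3% and 3.34% of the classes in the control and 47.8%, 27.7% and 4.50% in the knockout library, so counts were repeated without them. Although the sort selected CD4+ T cells, 9 of 10 ILC markers were higher in Cd3-negative than in other Cd3-positive nuclei in both libraries, among them Kit and Il1r1. Apart from the 3 Cd3 genes that define the classes, the 9 other T-cell markers summed to 2109 and 2182 CPM (counts per 1000000 UMIs) in Cd3-negative nuclei against 5126 and 5288 CPM in other Cd3-positive nuclei, so T-cell RNA was lower in sum but not absent. Of the 9, 8 were lower in Cd3-negative nuclei of both libraries. The exception was Cd4, at 257 and 405 CPM against 270 and 733 CPM, a difference whose interval included 0 in the control. A wider T-cell gene set added Cd247, Trac, Trbc1 and Trbc2 to the Cd3 genes. Under it, 809 of the 1645 control and 431 of the 933 knockout nuclei stayed in the Cd3-negative class. The class can therefore not be read as ILC alone. Of the 420 and 249 Foxp3-positive nuclei, 358 and 220 had a Cd3 UMI. Foxp3 RNA in that class was 364 CPM in the control and 177 CPM in the knockout library. The 7 regulatory T-cell markers, Foxp3 included, summed to 6449 and 5082 CPM there and to 3641 and 3664 CPM in other Cd3-positive nuclei. A nucleus whose Foxp3 RNA went undetected counts as other Cd3-positive, so these classes may share cell types. B-cell markers summed to at most 63.8 CPM in any class. Plasma cell markers summed to 934 and 832 CPM in Cd3-negative against 219 and 349 CPM in other Cd3-positive nuclei, and of the Jchain UMIs in Cd3-negative nuclei, 2643 of 2710 in the control and 1485 of 1527 in the knockout came from 11 and 8 nuclei. Epithelial markers summed to 2433 and 7437 CPM in Cd3-negative nuclei, nearly all of it Tff2 from 1 control and 2 knockout nuclei. The part of such nuclei in the results was not tested. The libraries shared 11 cell barcodes. Zfp362 RNA was 9.35 and 6.61 CPM in other Cd3-positive and 7.47 and 3.24 CPM in Cd3-negative nuclei (control and knockout in turn), and since the labels do not say which exons are removed, it does not check the genotype.

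Promoter sequences are shown for 4 genes where a peak at the start differed between classes of nuclei. Gzmc, a granzyme gene, is shown because it was the only unlisted gene with its start within 1 kb of a site called between other Cd3-positive and Cd3-negative nuclei, and Il17f, Il22 and Il23r because their own promoter peaks were the only ones of the listed genes called in that comparison. Each run is the 250 bases before the RefSeq start (GRCm38.p6) in the direction of transcription, and each lies inside the peak of both libraries. Capitals mark the motifs found on either strand.
Gzmc promoter, chr14:56234658-56234907, minus strand: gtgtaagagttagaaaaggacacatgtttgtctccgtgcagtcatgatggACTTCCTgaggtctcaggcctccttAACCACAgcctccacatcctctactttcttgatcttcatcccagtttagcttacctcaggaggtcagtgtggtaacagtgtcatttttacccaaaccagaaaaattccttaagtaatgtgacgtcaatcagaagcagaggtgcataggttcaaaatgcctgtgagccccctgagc
Il17f promoter, chr1:20784271-20784520, minus strand: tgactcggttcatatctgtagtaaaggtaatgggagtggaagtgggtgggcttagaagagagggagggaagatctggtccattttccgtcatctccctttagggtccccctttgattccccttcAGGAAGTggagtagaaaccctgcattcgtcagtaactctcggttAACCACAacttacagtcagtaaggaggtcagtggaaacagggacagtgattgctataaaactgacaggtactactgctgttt
Il22 promoter, chr10:118204714-118204963, plus strand: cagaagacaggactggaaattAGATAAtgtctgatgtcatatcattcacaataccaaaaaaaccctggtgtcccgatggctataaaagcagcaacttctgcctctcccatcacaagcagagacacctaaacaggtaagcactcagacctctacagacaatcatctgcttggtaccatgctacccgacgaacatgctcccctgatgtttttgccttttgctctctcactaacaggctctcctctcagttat
Il23r promoter, chr6:67491856-67492105, minus strand: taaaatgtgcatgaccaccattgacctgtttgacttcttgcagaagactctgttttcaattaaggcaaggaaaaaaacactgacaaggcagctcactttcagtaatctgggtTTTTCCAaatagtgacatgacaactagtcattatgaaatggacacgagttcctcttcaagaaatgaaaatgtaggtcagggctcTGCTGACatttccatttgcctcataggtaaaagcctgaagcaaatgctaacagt
The searches covered both strands. AP-1 was searched as TGANTCA. T-box sites were read as GGTGTGA and GATA sites as AGATAA. For RUNX the letters were TGTGGTT, and for ETS they were AGGAAGT. Forkhead sites were read as TGTTTAC and STAT sites as TTCNNNGAA. For NFAT the letters were TGGAAAA, for TCF they were CTTTGAA, and for MAF they were TGCTGAC, and NF-kB was searched too. No printed motif overlaps another. The Gzmc and Il17f windows each hold 1 RUNX and 1 ETS motif, the Il22 window 1 GATA motif, and the Il23r window 1 NFAT and 1 MAF motif. Of 32817 RefSeq promoter windows of this length, 4.39% hold the RUNX, 7.69% the ETS, 9.99% the GATA, 5.92% the NFAT and 3.81% the MAF motif, so single matches are common. A match describes the letters and is not a binding site. Of the 25 listed genes, 22 had a RefSeq window, and Il10, Ccl4 and Ccl5 had none.

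Accessibility is given as FPM, the fragments in a site per 1000000 fragments in all peaks of that class and library. Most sites were small, with medians over the 343 sites between 4.88 and 5.89 FPM in the 6 combinations of class and library. In Foxp3-positive nuclei that median stood for 12 control and 20 knockout fragments, against 45 and 55 fragments in other Cd3-positive nuclei, so the precision was lowest for Foxp3-positive nuclei. A value of 0 allows up to 1.32 and 0.812 FPM in Foxp3-positive nuclei, and 0.542 and 0.626 FPM in Cd3-negative nuclei. At 9 of the 16 loci the most open site lay within 1 kb of the start of another gene. The most open of all covered exons of Prrc2a at the Ltb, Tnf and Lta locus, with 115, 138 and 127 FPM in the control library, and 117, 133 and 117 FPM in the knockout in Foxp3-positive, other Cd3-positive and Cd3-negative nuclei. The most open sites near Tgfb1 (over Hnrnpul1), Il22 (over Mdm1) and Il5 (over Irf1) had between 70.9 and 124 FPM in each class and library. None of these 4 was called in any comparison. The nearest peaks to either limit of the rule were of ordinary size. The member closest to a start, near Xcl1, had 5.68 FPM in other Cd3-positive nuclei of the control library, and the first control peak beyond 100 kb, near Areg, had 2.96 FPM.

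In the comparison of other Cd3-positive with Cd3-negative nuclei, the loci of Il21, Ifng, Il10 and the Th2 cytokines held groups of sites that were more open in the Cd3-positive nuclei, while the Csf2 locus held a group of sites more open in the Cd3-negative nuclei. A site was called when the log2 ratio was at least 1 in size, its interval excluded 0 and both held in the same direction in each library, at 20 or more fragments over the 2 classes. Of 310 sites with enough fragments, 37 were higher in other Cd3-positive nuclei, or 11.9%, where 5.71% of all matched sites and 6.99% of matched sites over 1 kb from every gene were. By contrast, 22 sites, or 7.10%, were lower, where 10.9% of all matched sites and 12.9% of those over 1 kb from every gene were. The median log2 ratio of the 310 sites was 0.12 (control) and 0.13 (knockout), beside 0.03 and 0.03 over all matched sites. The sign agreed between libraries at 246 of the 310 sites. A call in the control library alone held for 53 higher and 37 lower sites, and in the knockout library alone for 52 and 30, so the demand for both libraries set the shorter counts. Without nuclei of over 2 times the median UMIs, 29 of 257 sites were higher and 30 were lower, beside 6.19% and 12.8% of all matched sites, and 24 and 20 of the sites named above were among them. With the wider T-cell gene set, 27 of the 37 higher and 19 of the 22 lower sites were called again. In sums over a class, fewer nuclei with an open site and less opening per nucleus cannot be told apart.

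**Figure D1:**
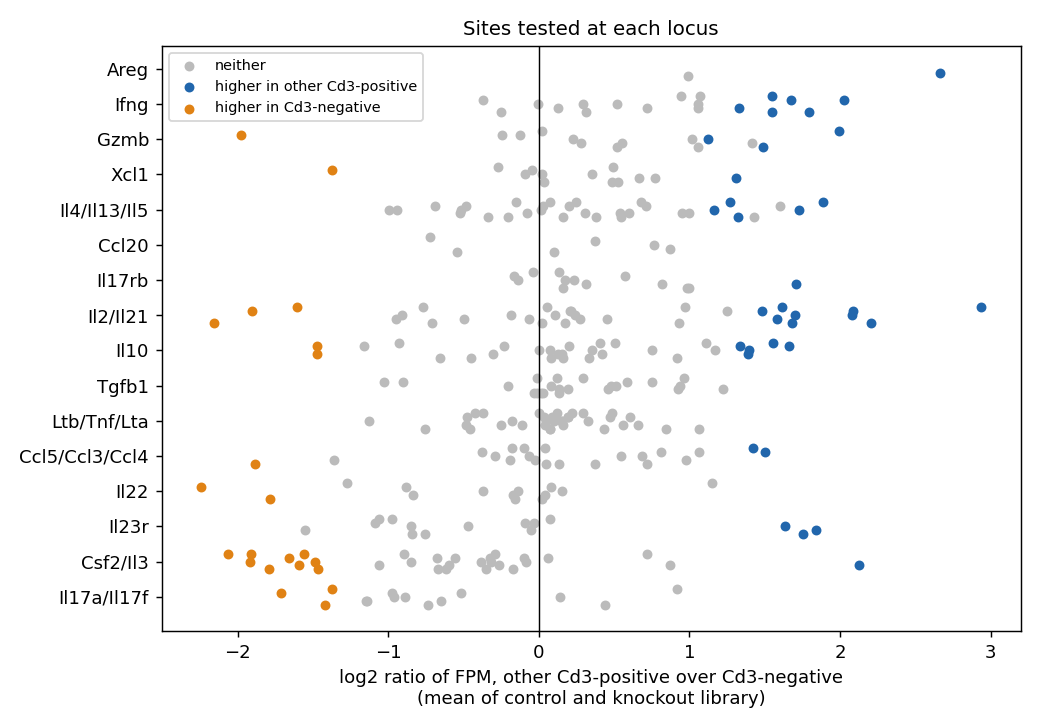
Log2 ratio of FPM in other Cd3-positive over Cd3-negative nuclei (horizontal axis, mean of the control and knockout library) for the 310 tested sites, 1 point per site, with loci as rows in the order of their medians and small vertical offsets within a row for legibility. Blue points are the 37 sites called higher in other Cd3-positive nuclei and orange points the 22 called higher in Cd3-negative nuclei. Blue points gather at Il2/Il21, Ifng, Il10 and Il4/Il13/Il5 and orange points at Csf2/Il3.

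The called sites were almost all distal. Of the 37 higher sites 32 were intergenic, 1 was intronic and 4 overlapped exons, and of the 22 lower sites 19 were intergenic and 3 overlapped exons. None of the 37 and 1 of the 22 lay within 1 kb of the start of an unlisted gene, although 50 of the 251 tested sites that were not called did. Over all matched sites, 3079 of the 3740 higher and 5691 of the 7143 lower ones likewise lay over 1 kb from every gene. A distal position of called sites is thus not particular to this set. The called sites were also less open than the others, with a median over sites of 4.18 FPM for the higher and 4.54 FPM for the lower ones, against 7.18 FPM for those not called.

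Il10 encodes an anti-inflammatory cytokine, and its upstream flank held 5 sites that were higher in other Cd3-positive nuclei, spread from 26.00 kb to 9.13 kb upstream. The most open called site of the whole set was among them, 26.00 kb upstream of Il10 (chr1:130993401-130994297, intergenic). It had 41.2, 50.9 and 15.9 FPM in the control library, and 41.7, 43.5 and 13.8 FPM in the knockout, again in the order Foxp3-positive, other Cd3-positive and Cd3-negative nuclei, which is kept below. Foxp3-positive and other Cd3-positive nuclei lay well above the Cd3-negative nuclei in each library, and the log2 ratios of other Cd3-positive over Cd3-negative nuclei were 1.67 (1.34 to 2.03) and 1.65 (1.28 to 2.06). The neighbouring site 23.4 kb upstream had 16.2, 19.2 and 5.42 FPM in the control library, and 20.3, 14.1 and 5.64 FPM in the knockout. The remaining 3, at 16.5, 13.8 and 9.13 kb upstream, had log2 ratios between 1.06 and 1.72. On the far side of the gene, 2 sites 83.8 and 93.96 kb downstream, towards Mapkapk2, went the other way, with log2 ratios of -1.34 and -1.61 and of -1.51 and -1.44. Of 29 tested sites at the locus, 5 were thus higher and 2 lower, where 5.71% and 10.9% of all matched sites were. The 2 lower ones do not exceed that share. Il10 RNA was 207 and 161 CPM in other Cd3-positive and 96.8 and 89.7 CPM in Cd3-negative nuclei. The RNA and the called upstream sites, unlike the 2 downstream ones, were thus higher in the same class. Accessibility and RNA were not compared within single nuclei.

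Ifng encodes interferon gamma, the cytokine that defines Th1 cells. Around it 6 of 18 tested sites were higher in other Cd3-positive nuclei, where 5.71% of all matched sites were. No site was lower, and of the 6 higher ones 1 lay upstream and 5 downstream. The most open of them lay 29.7 kb downstream (chr10:118470253-118471227, intergenic) and had 10.5, 12.8 and 3.80 FPM in the control library, and 8.39, 13.2 and 5.01 FPM in the knockout. Its log2 ratios were 1.73 (1.07 to 2.50) and 1.37 (0.75 to 2.09), and Foxp3-positive nuclei had values between those of the other classes. The upstream site, 5.45 kb upstream, had 3.07, 10.5 and 3.80 FPM in the control library, and 6.76, 7.92 and 3.34 FPM in the knockout. In Foxp3-positive nuclei of the control library that site was at the level of the Cd3-negative nuclei, and in those of the knockout library it was nearer to other Cd3-positive nuclei. The other downstream sites, 20.6, 28.1, 40.7 and 47.1 kb downstream, had at most 3.79 FPM in other Cd3-positive and at most 1.81 FPM in Cd3-negative nuclei. Over all 21 sites of the locus the median log2 ratio was 0.92 (control) and 1.13 (knockout). Ifng RNA was 141 and 119 CPM in other Cd3-positive and 54.96 and 41.1 CPM in Cd3-negative nuclei.

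At the Th2 cluster 5 of 32 tested sites were higher in other Cd3-positive nuclei and none lower, where 5.71% and 10.9% of all matched sites were. RNA of Il4, Il5 and Il13 was scarce. The largest difference was at a site inside an intron of Rad50, 22.3 kb upstream of Il13 (chr11:53656519-53657428), the gene that holds the known locus control region. It had 26.8, 22.5 and 4.70 FPM in the control library, and 23.8, 20.2 and 6.89 FPM in the knockout, with log2 ratios of 2.24 (1.66 to 2.91) and 1.54 (1.02 to 2.13). Foxp3-positive nuclei were as open there as other Cd3-positive nuclei, with log2 ratios between these 2 classes of 0.26 (-0.19 to 0.67) and 0.24 (-0.15 to 0.61). The other sites lay 28.1 kb downstream of Il4, 7.88 and 3.50 kb downstream of Il13, the last over its final exon, and 11.7 kb downstream of Il5. Their log2 ratios lay between 1.04 and 1.74 over both libraries. Il4 RNA was 72.9 and 40.3 CPM in other Cd3-positive and 26.6 and 7.40 CPM in Cd3-negative nuclei. Il13, a cytokine of allergy and worm infection, had 5.02 and 3.61 CPM in other Cd3-positive nuclei, 1 UMI in Cd3-negative nuclei of the control and 0 UMIs in those of the knockout library. Rad50 RNA, read from the host gene, was 48.1 and 41.7 CPM in other Cd3-positive and 35.8 and 26.8 CPM in Cd3-negative nuclei.

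Il21 encodes a cytokine of follicular and inflammatory helper T cells, and its neighbour Il2 the main T-cell growth factor. The flank upstream of Il21 had the largest group of higher sites, with 7 of the 8 sites called higher beside Il21 lying between 25.3 and 60.3 kb upstream. The most open of these 7 was 25.3 kb upstream (chr3:37257419-37258513, intergenic), with 5.27, 16.8 and 4.34 FPM in the control library, and 9.74, 17.99 and 3.76 FPM in the knockout. Other Cd3-positive nuclei stood above both other classes in each library, at log2 ratios over Cd3-negative nuclei of 1.93 (1.32 to 2.64) and 2.22 (1.55 to 3.05). The largest mean difference was 30.6 kb upstream, where Cd3-negative nuclei had 2 control fragments and 1 knockout fragment against 30 and 21 fragments in other Cd3-positive nuclei (log2 ratios 2.999 (1.32 to 6.41) and 2.88 (0.79 to 8.80)). The eighth site was 13.3 kb downstream of Il21, and 1 more lay 35.2 kb upstream of Il2. Of 31 tested sites at Il2 and Il21, 9 were thus higher and 3 lower, where 5.71% and 10.9% of all matched sites were. Lower sites were at 42.7 kb downstream of Il21, 20.6 kb upstream of Il2 and 79.6 kb downstream of Il2, the last over an exon of 4932438A13Rik, with log2 ratios between -2.27 and -1.51. Il21 RNA had at most 12.1 CPM in any class. Il2 RNA was 45.02 and 33.8 CPM in other Cd3-positive and 14.04 and 17.6 CPM in Cd3-negative nuclei.

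**Figure D2:**
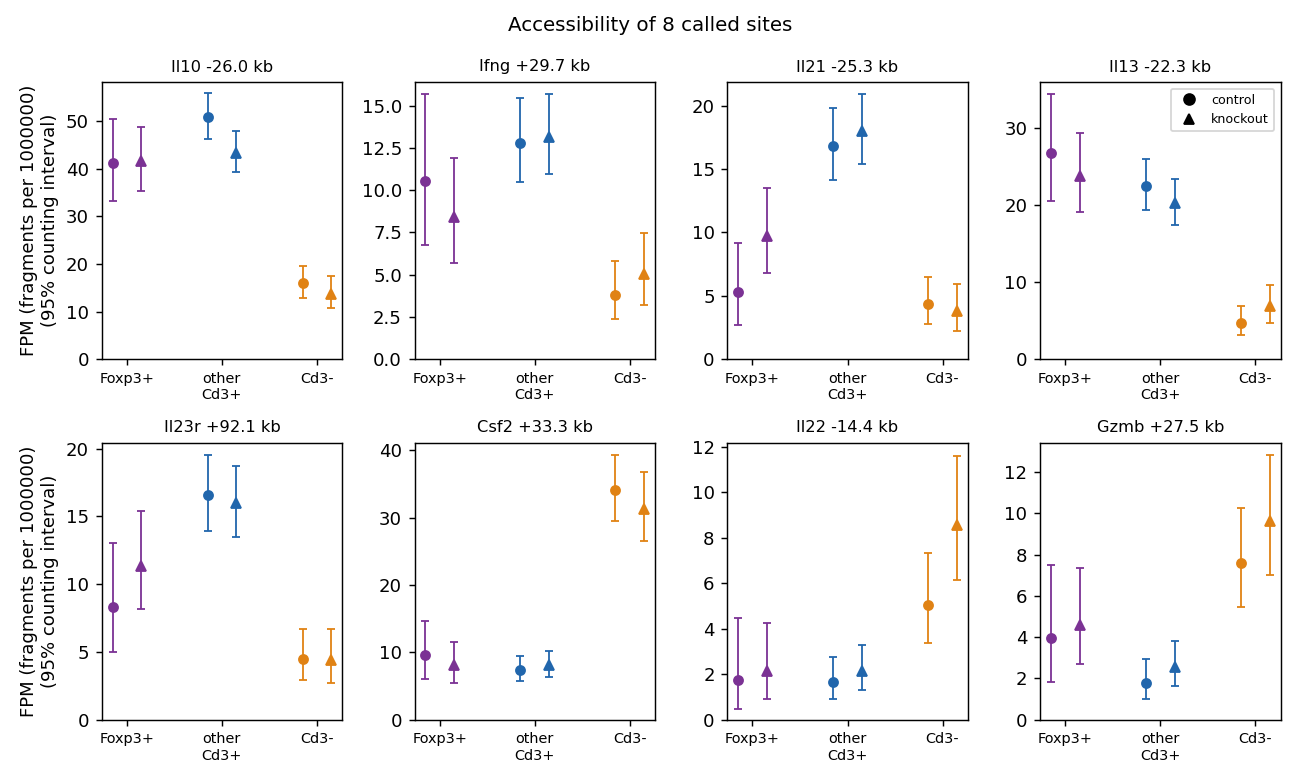
FPM (vertical axis, linear from 0) at 8 called sites in Foxp3-positive (purple), other Cd3-positive (blue) and Cd3-negative (orange) nuclei, with circles for the control and triangles for the knockout library and bars for the 95% counting interval. Panel titles give the nearest listed gene and the distance from its start. In the first 5 panels other Cd3-positive nuclei lie above Cd3-negative nuclei, and at Csf2, Il22 and Gzmb they lie below.

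Csf2 encodes GM-CSF, which acts on myeloid cells. Of 30 tested sites at its locus, 9 were lower in other Cd3-positive than in Cd3-negative nuclei, where 10.9% of all matched sites were. These 9 all lay downstream of Csf2 and were more than the lower sites of any other locus. They reached from 12.5 to 93.6 kb downstream, all on the side away from Il3. The most open of the 9, 33.3 kb downstream (chr11:54215941-54216855, intergenic), had 9.65, 7.46 and 34.2 FPM in the control library, and 8.12, 8.14 and 31.3 FPM in the knockout. Foxp3-positive and other Cd3-positive nuclei stayed under 10 FPM while Cd3-negative nuclei were above 30 FPM, and the log2 ratios were -2.19 (-2.63 to -1.78) and -1.94 (-2.36 to -1.54). Next in level came the site 93.6 kb downstream, with 11.8, 8.17 and 22.8 FPM in the control library, and 9.20, 7.60 and 21.5 FPM in the knockout. 1 further site, 98.3 kb downstream, was higher in other Cd3-positive nuclei (log2 ratios 1.47 and 2.79), so neighbouring sites only a few kb apart took opposite directions. Summed over the 33 sites of the locus, other Cd3-positive nuclei had 157 and 188 FPM and Cd3-negative nuclei 294 and 306 FPM. Csf2 RNA was 31.7 and 58.5 CPM in other Cd3-positive and 90.2 and 80.9 CPM in Cd3-negative nuclei, with log2 ratios of -1.51 (-1.78 to -1.24) and -0.47 (-0.74 to -0.19). No UMI of Il3, a growth factor of mast cells and basophils, was counted in any class.

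**Figure D3:**
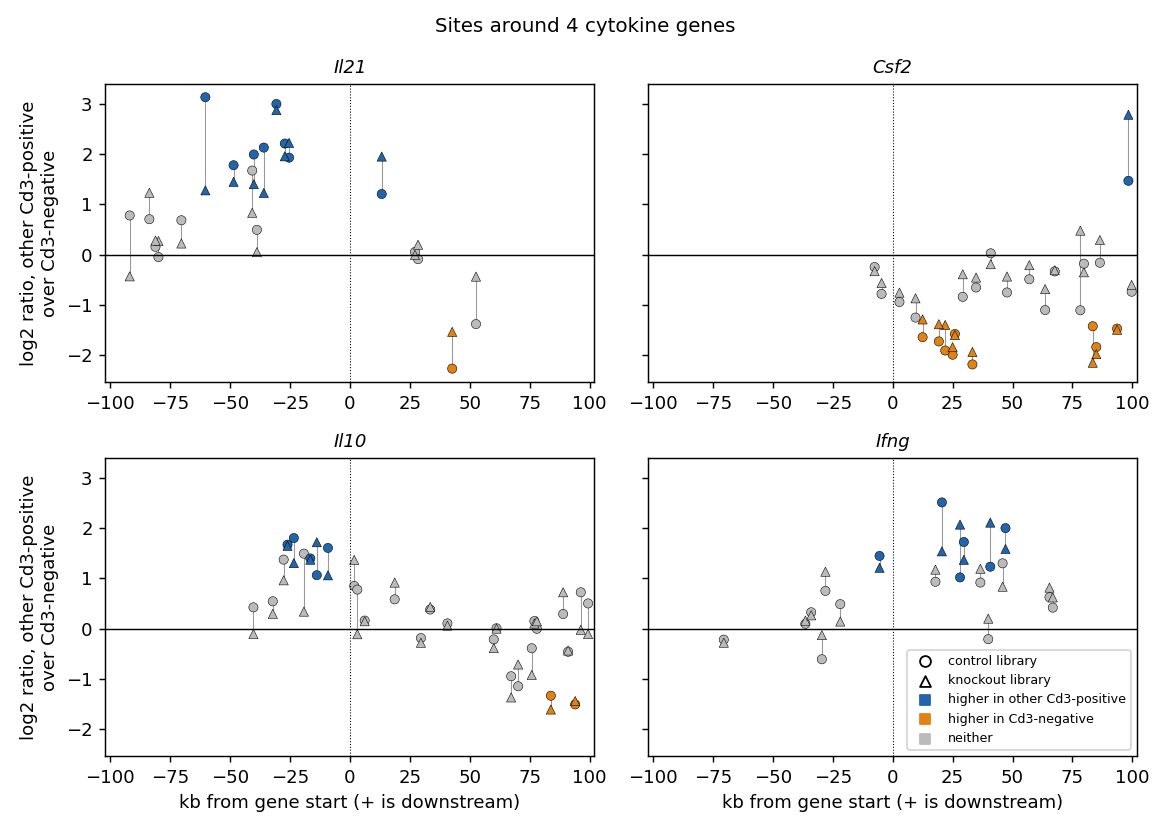
Log2 ratio of FPM in other Cd3-positive over Cd3-negative nuclei (vertical axis) against the distance of a site from the start of its nearest listed gene in kb (horizontal axis, positive downstream) for the 91 tested sites nearest to Il21, Csf2, Il10 or Ifng. Each site has a circle (control) and a triangle (knockout) joined by a line, blue where called higher in other Cd3-positive nuclei, orange where called higher in Cd3-negative nuclei and grey otherwise. Blue sites lie mostly upstream of Il21 and Il10 and downstream of Ifng, and orange sites downstream of Csf2.

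By the median log2 ratio over their sites, the type 17 loci leaned towards Cd3-negative nuclei. The medians were -0.94 and -0.79 at Il17a and Il17f, -0.25 and -0.50 at Il22 and -0.81 and -0.53 at Il23r. The calls did not all share this direction, as the 3 called sites at Il23r were higher in other Cd3-positive nuclei. IL-17A and IL-17F recruit neutrophils, IL-22 acts on epithelium, and Il23r encodes the receptor subunit for IL-23, which sustains the cells that make them. At Il17a and Il17f 3 of 14 tested sites were lower in other Cd3-positive nuclei and none higher, where 10.9% of all matched sites were lower. The site with the most fragments lay 44.8 kb upstream of Il17a, with 0.878, 2.72 and 7.05 FPM in the control library, and 2.43, 2.68 and 7.51 FPM in the knockout. The others lay 16.6 kb downstream of Il17f and 2.95 kb upstream of it, the latter over an exon of the annotated Il17f gene, with log2 ratios of -1.81 and -1.62 and of -1.21 and -1.53. The RNA of the 2 neighbours went in opposite directions. Il17f RNA was 29.6 and 46.3 CPM in other Cd3-positive and 117 and 117 CPM in Cd3-negative nuclei, lower in the Cd3-positive nuclei, and Il17a RNA was 37.4 and 51.5 CPM in other Cd3-positive and 19.1 and 13.4 CPM in Cd3-negative nuclei, higher in them.

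Near Il22 2 of 14 tested sites were lower, 23.6 and 14.4 kb upstream, which is near the 10.9% of all matched sites. The nearer one (chr10:118190025-118191003, intergenic) had 1.76, 1.66 and 5.06 FPM in the control library, and 2.16, 2.14 and 8.56 FPM in the knockout, with log2 ratios of -1.59 (-2.65 to -0.64) and -1.98 (-2.85 to -1.19). Foxp3-positive and other Cd3-positive nuclei were near 2 FPM there. Il22 RNA was 542 and 880.4 CPM in other Cd3-positive and 2452 and 2415 CPM in Cd3-negative nuclei. Il22 has a close copy nearby, Iltifb, and how shared reads were counted is not given in the sources used here, so its RNA level is uncertain.

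Around Il23r 3 of 15 tested sites were higher in other Cd3-positive nuclei, where 5.71% of all matched sites were. They lay 76.4, 92.1 and 96.1 kb downstream of its start, although Il23r RNA was higher in Cd3-negative nuclei. The middle one (chr6:67399238-67400221, intergenic) had 8.34, 16.6 and 4.52 FPM in the control library, and 11.4, 15.95 and 4.38 FPM in the knockout, with log2 ratios of 1.85 (1.25 to 2.55) and 1.83 (1.20 to 2.60). Il23r RNA was 300.1 and 355 CPM in other Cd3-positive and 1135 and 1121 CPM in Cd3-negative nuclei. The unlisted gene nearest to these sites was Il12rb2, which encodes a receptor subunit for the Th1-promoting cytokine IL-12, and whose start-site interval lay 38805, 23049 and 19134 bases away. Its RNA was 467 and 591 CPM in other Cd3-positive and 147 and 196 CPM in Cd3-negative nuclei, with log2 ratios of 1.66 (1.53 to 1.81) and 1.59 (1.44 to 1.74). The 3 sites were thus more open in the class of nuclei with more Il12rb2 and less Il23r RNA. Il12rb2 was looked at after the values of the sites were seen.

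Among cytotoxic and chemokine genes, calls were few, where 5.71% of all matched sites were higher and 10.9% lower. Gzmb encodes granzyme B, and 3 of 14 tested sites near it were higher, 56.98 kb downstream, 4.05 kb upstream and 29.2 kb upstream, with log2 ratios between 1.10 and 2.39. The site over the Gzmc promoter printed above (chr14:56234292-56235200, 27.5 kb downstream of Gzmb) was lower, with 3.95, 1.78 and 7.59 FPM in the control library, and 4.60, 2.57 and 9.60 FPM in the knockout and log2 ratios of -2.07 (-3.05 to -1.22) and -1.89 (-2.68 to -1.16). Gzmc RNA was 11.6 and 7.61 CPM in other Cd3-positive and 19.7 and 40.2 CPM in Cd3-negative nuclei, and Gzmb RNA 210.4 and 179 CPM in other Cd3-positive and 60.9 and 67.5 CPM in Cd3-negative nuclei. RNA of these adjacent granzyme genes thus went in opposite directions. The peak at the Gzmb start was not called, at log2 ratios of 0.54 and 0.09. Opposite accessibility was therefore seen only between the Gzmc promoter and the 3 sites flanking Gzmb. Near Ccl3, Ccl4 and Ccl5, 21 sites were tested. The sites 12.4 kb downstream of Ccl3 and 74.9 kb downstream of Ccl4 were higher and a site 13.8 kb upstream of Ccl5 was lower, while Ccl5 RNA was higher in other Cd3-positive nuclei. Xcl1, a dendritic cell attractant, had 13 tested sites, with 1 higher site 37.4 kb upstream and 1 lower site 21.8 kb upstream.

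Areg encodes amphiregulin, a tissue-repair factor, and the site 12.8 kb upstream had 3.95, 3.55 and 0.361 FPM in the control library, and 3.25, 2.57 and 0.417 FPM in the knockout. Cd3-negative nuclei had 2 fragments there in each library, and the log2 ratios were 2.999 (1.32 to 6.41) and 2.33 (0.61 to 5.75). Il17rb, a receptor subunit for IL-25, had 1 higher site of 13 tested, 61.8 kb downstream (log2 ratios 1.75 and 1.66). No site was called in this comparison around Tgfb1 (23 tested), around Ltb, Tnf and Lta (35 tested) or around Ccl20 (6 tested). Those around Ltb, Tnf and Lta had a median log2 ratio of 0.13 and 0.11, while the RNA of these 3 genes was higher in Cd3-negative nuclei.

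RNA of the same nuclei gave a second readout. Of the 25 listed genes, 16 had more RNA in other Cd3-positive and 7 in Cd3-negative nuclei, with intervals excluding 0 in both libraries. Of the 37 higher sites, 32 had a nearest listed gene whose RNA was also higher, 4 one whose RNA was lower, namely the 3 sites of Il23r and 1 of Csf2, and 1 a gene with neither. Of the 22 lower sites, 13 had a nearest gene with lower RNA and 9 one with higher RNA, the latter at Il10, Il17a, Il2, Il21, Ccl5, Xcl1 and Gzmb. With 16 of 25 genes higher in RNA, such counts follow in part from the choice of genes, and sites at 1 locus share it, so they are a description.

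Between other Cd3-positive and Cd3-negative nuclei the genes' own promoters were called in 1 direction only. Of the 25 promoters, 22 had matched peaks, of which 3, or 13.6%, were lower in other Cd3-positive nuclei and none higher, beside 7.10% lower and 11.9% higher among the flanking sites. Over all matched sites 10.9% were lower and 5.71% higher. The 3 promoters are thus near the general share, and so few calls do not set these promoters apart. Il22 had 5.09 against 20.1 FPM in the control library, and 7.17 against 20.9 FPM in the knockout, Il17f 6.39 against 18.8 FPM in the control library, and 4.92 against 17.1 FPM in the knockout and Il23r 6.51 against 24.6 FPM in the control library, and 8.35 against 24.6 FPM in the knockout, in other Cd3-positive against Cd3-negative nuclei. The Ifng promoter had 15.6 against 6.33 FPM in the control library, and 16.8 against 8.35 FPM in the knockout, with log2 ratios of 1.29 and 0.996, the second of which was just short of 1. At Il21 the promoter had log2 ratios of 1.84 and 0.77. The most open site nearest to Il21, 79.8 kb upstream over the start of Cetn4, had -0.05 and 0.27, and the most open called one had 1.93 and 2.22. At Csf2 the promoter had -0.74 and -0.69, the most open site, 34.8 kb downstream, had -0.66 and -0.46, and the most open called one had -2.19 and -1.94. Called sites were chosen for their difference, so their larger ratios are no comparison of flanks with promoters. Between libraries the Ifng promoter was called in Foxp3-positive nuclei, with 4.39 FPM in control and 11.1 FPM in knockout nuclei, at a log2 ratio of 1.29 (0.32 to 2.50). It was the only promoter called between libraries, where 1.90% of all matched sites were higher in these nuclei. This call was not repeated without nuclei of over 2 times the median UMIs. Ifng RNA in Foxp3-positive nuclei was 19.2 CPM in control and 73.4 CPM in knockout with all nuclei. Without those nuclei it was 16.3 and 12.8 CPM, from 11 and 4 UMIs.

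Foxp3-positive and other Cd3-positive nuclei differed at few of these sites. Of 288 tested sites, 2 were higher in Foxp3-positive nuclei in both libraries, or 0.694%, where 0.193% of all matched sites were, and 0 were lower, where 0.0592% were. The site 27.6 kb upstream of Il10 (chr1:130991821-130992656, intergenic) had 11.8, 5.33 and 1.99 FPM in the control library, and 7.30, 2.998 and 1.46 FPM in the knockout. Foxp3-positive nuclei were highest in each library, with log2 ratios of 1.16 (0.41 to 1.87) and 1.29 (0.47 to 2.10). Il10 RNA was also higher in them, at 503 and 386 CPM. The second site, 43.1 kb downstream of Ccl20 over an exon of Daw1, rested on 11 and 13 Foxp3-positive fragments. Its log2 ratios were 1.28 (0.02 to 2.44) and 1.70 (0.41 to 3.07). Called in a single library, 6 sites were higher and 14 lower in the control, and 3 and 1 in the knockout library.

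Deep nuclei changed which sites were called. They made up 28.8% and 47.8% of Foxp3-positive nuclei. Without them, 196 sites could be tested, 3 were higher and 4 lower, beside 0.686% and 0.555% of all matched sites, and neither of the 2 sites above had enough fragments left in both libraries. The Il10 site then had log2 ratios of 1.81 (0.76 to 2.77) and 1.86 (0.085 to 3.37). The higher ones were at 19.2 kb upstream and 33.5 kb downstream of Il10 and 15.3 kb upstream of Areg, and Areg RNA was higher in Foxp3-positive nuclei too. The site 19.2 kb upstream then had log2 ratios of 1.61 and 1.79, against 1.21 and 0.73 with all nuclei. The lower ones were the most open called Il21 site (25.3 kb upstream), a site 2.58 kb upstream of Il2, the site 6.50 kb upstream of Ccl5 and the middle site beyond Il23r. At the Il21 site the log2 ratios moved from -1.62 and -0.87 to -2.72 and -1.98, with 2 and 3 Foxp3-positive fragments left. With all nuclei, Il2 and Ccl5 RNA was likewise lower in Foxp3-positive nuclei of both libraries. Without the deep ones both were lower too, with 5 and 1 UMIs of Il2 left in Foxp3-positive nuclei. Il21 RNA with all nuclei had log2 ratios of -1.89 (-3.68 to -0.72) and -0.62 (-1.58 to 0.19), the second with an interval that included 0. Il23r RNA with all nuclei was higher in Foxp3-positive nuclei, at 0.31 (0.17 to 0.44) and 0.40 (0.28 to 0.51), the opposite direction to its site. Without deep nuclei, Il23r RNA was 283 CPM in Foxp3-positive and 203 CPM in other Cd3-positive nuclei of the control library. In the knockout library these were 201 and 230 CPM, so the opposite direction then held in the control library alone.

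**Figure D4:**
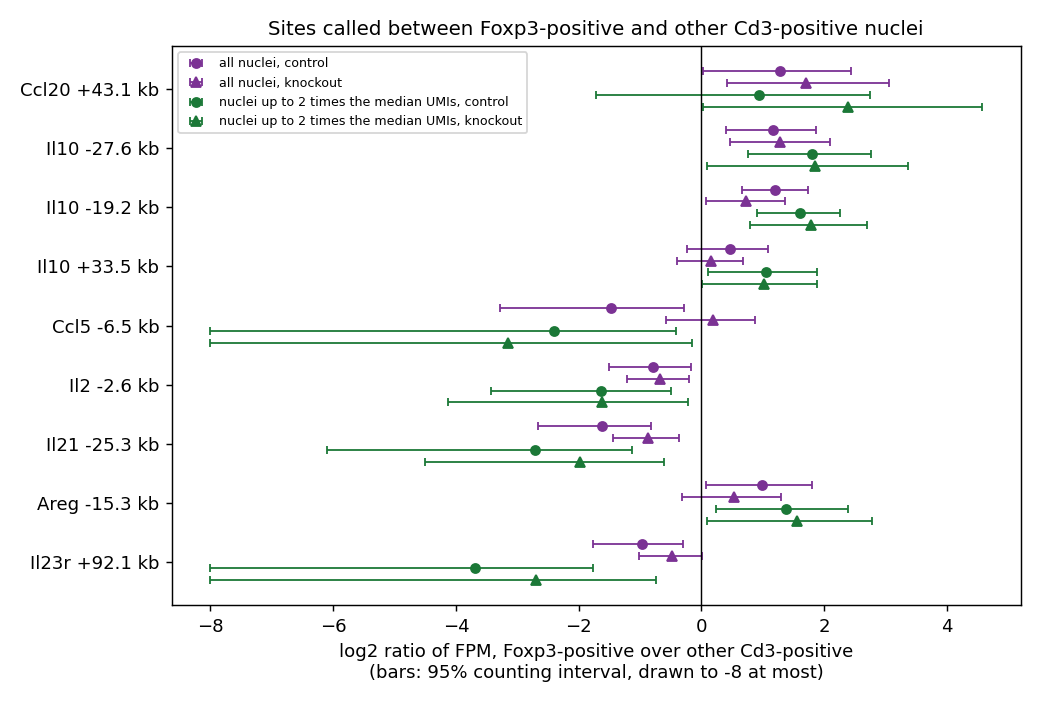
Log2 ratio of FPM in Foxp3-positive over other Cd3-positive nuclei (horizontal axis) at the 9 sites called with all nuclei (purple) or without nuclei of over 2 times the median UMIs (green), with circles for the control and triangles for the knockout library and bars for the 95% counting interval. Sites are labelled by the nearest listed gene and the distance from its start. Green points lie farther from 0 than purple ones at the Il21, Il2 and Il23r sites, with wider bars.

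Between the libraries, few sites differed in any class, and the shares were near or below those of all matched sites. In other Cd3-positive nuclei 335 sites were tested, 3 were higher and 2 lower in the knockout library, or 0.896% and 0.597%, beside 1.70% and 0.574% of all matched sites. In Cd3-negative nuclei 2 of 271 were higher and 1 lower, beside 1.32% and 0.909%. In Foxp3-positive nuclei 3 of 230 were higher and 3 lower, beside 1.90% and 1.35%. Median log2 ratios of knockout over control were 0.01 in other Cd3-positive and 0.03 in Cd3-negative nuclei.

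In other Cd3-positive nuclei the site over an exon of Rad50, 20.6 kb upstream of Il13, had 4.38 FPM in control and 9.21 FPM in knockout nuclei, at a log2 ratio of 1.06 (0.50 to 1.67), and its neighbour in the intron, described above, had a log2 ratio of -0.15 (-0.45 to 0.15). Sites 18.4 kb upstream of Il22 and 29.2 kb downstream of Csf2 were higher too, each going from 1.30 FPM in the control to 2.89 FPM in the knockout library. Il22 and Csf2 RNA was higher in the same class of the knockout library, with log2 ratios of 0.70 (0.63 to 0.77) and 0.88 (0.61 to 1.16), while Il4 RNA was lower, at -0.85 (-1.11 to -0.61). The lower sites lay 53.3 kb downstream of Xcl1 and 93.3 kb upstream of Il21, both with at most 3.32 FPM. Without the deep nuclei the calls at the Rad50 exon and near Xcl1 held, at 1.11 (0.40 to 1.86) and -1.61 (-3.76 to -0.16), and the Il21 site lost its call, at -1.08 (-2.98 to 0.34). The sites near Il22 and Csf2 then had too few fragments to be tested, with ratios of 0.68 (-0.96 to 2.39) and 2.09 (0.28 to 4.74). At the most open called Il21 and Csf2 sites the log2 ratios between libraries were 0.10 (-0.23 to 0.43) and 0.12 (-0.38 to 0.63) in these nuclei, with intervals that included 0. At the most open Csf2 site of all, not called, the ratio was 0.30 (0.02 to 0.58).

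In Foxp3-positive nuclei the site 19.2 kb upstream of Il10 had 21.5 FPM in control and 9.74 FPM in knockout nuclei, at a log2 ratio of -1.14 (-1.80 to -0.49). Each library had a peak without a partner beside it, at 20.9 kb upstream in the control with 5.70 FPM and at 20.2 kb upstream in the knockout with 8.66 FPM in those nuclei. How this split of peaks bears on the ratio was not tested. Near Ccl20, the sites 21.4 kb downstream and 40.2 kb downstream were lower as well, with log2 ratios of -1.45 (-2.42 to -0.56) and -1.35 (-2.68 to -0.15). Ccl20, which attracts CCR6-bearing cells, had 23 UMIs in Foxp3-positive nuclei of the control and 14 in those of the knockout library. The 3 higher sites, near Tgfb1, Ccl5 and Csf2, had 1.32, 2.19 and 3.07 FPM in the control and 6.76, 6.76 and 7.85 FPM in the knockout library. Without the deep nuclei the log2 ratio of the Tgfb1 site went from 2.17 to -0.08 and that of the Ccl5 site from 1.52 to -0.93, and the site 21.4 kb downstream of Ccl20 was the only one of the 6 still called. The Il10 site then had a log2 ratio of -0.23 (-1.22 to 0.67), and the other 4 had too few fragments to be tested.

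In Cd3-negative nuclei the site 21.7 kb downstream of Gzmb had 1.27 FPM in control and 4.59 FPM in knockout nuclei, at a log2 ratio of 1.79 (0.58 to 3.33). The site 91.8 kb upstream of Il21 was higher and that 64.04 kb upstream of Xcl1 lower, with log2 ratios of 1.31 (0.21 to 2.59) and -1.49 (-2.90 to -0.37).

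**Figure D5:**
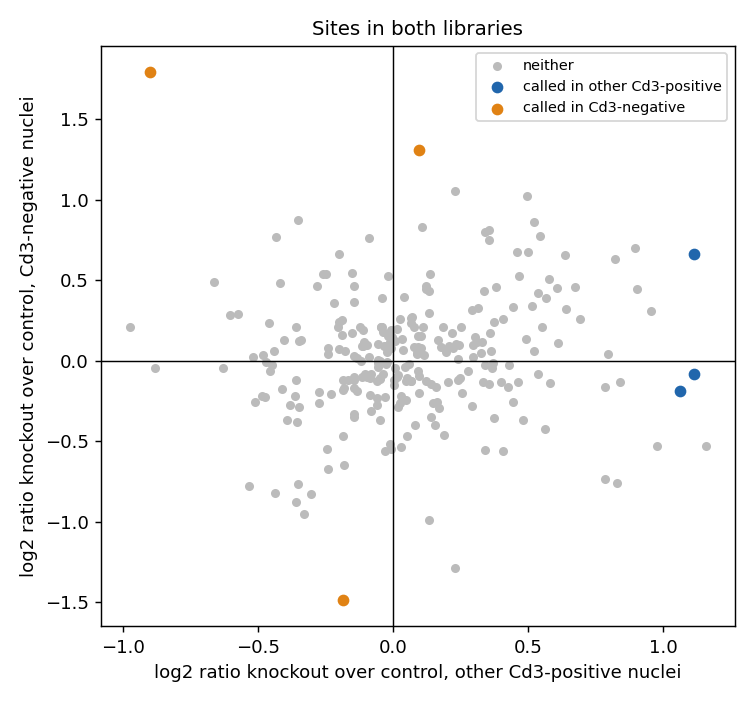
Log2 ratio of knockout over control in other Cd3-positive nuclei (horizontal axis) against the same ratio in Cd3-negative nuclei (vertical axis) for the 268 sites tested in both classes, 1 grey point per site that was called in neither. The 3 blue points were called in other Cd3-positive and the 3 orange points in Cd3-negative nuclei, and no site was called in both.

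Peaks without a partner in the other library were mostly small. Their median was 1.66 FPM in other Cd3-positive nuclei for the 42 control peaks and 1.39 FPM for the 41 knockout peaks. The largest was a control peak in an intron of Axl, 95.2 kb downstream of Tgfb1 (chr7:25781975-25782428), with 25.0, 15.6 and 7.23 FPM in Foxp3-positive, other Cd3-positive and Cd3-negative nuclei. Among the knockout peaks it was one in an intron of Nfkbil1, 27.0 kb upstream of Lta (chr17:35232068-35232564), with 13.5, 13.8 and 12.5 FPM. Such peaks have no value in the other library and entered no comparison.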

How the data were processed

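Nuclei of 1 control and 1 knockout library were analysed. The matrices hold whole-number counts per barcode, deposited by the authors and made with Cell Ranger ARC 2.0.1 on mm10, per the submitters' processing notes. Gene values are UMIs. Of the peak counts, 91.7% (control) and 90.7% (knockout) were even, so each count was divided by 2 and rounded up to give fragments. No other filter before deposit is given in the sources used.

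Nuclei were kept at 500 or more UMIs, 300 or more genes and no more than 10% mitochondrial UMIs (4176 of 4223 and 2346 of 2391). No doublet caller was run, and counts were repeated without nuclei of over 2 times the median UMIs. Peaks overlapping by at least 1 base were joined across libraries, which matched 87.7% of control and 85.8% of knockout peaks. Fragments were summed per class and library. Log2 ratios used a pseudocount of 0.5 fragments (0.5 UMIs for RNA) and intervals are exact 95% ones, conditional on the sum of both counts. A difference between libraries was called at a log2 ratio of at least 1 with an interval excluding 0 and at least 20 fragments over both libraries. The calling between other Cd3-positive and Cd3-negative nuclei was tested on simulated counts with large set changes and counting error alone. That test does not cover differences near the limit, variation between nuclei or the other comparisons. Positions are 1-based on mm10, with genes from GENCODE vM21 (GRCm38).

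The members and lists were chosen with earlier results of these data known. At each locus the most open site and up to 3 called sites per comparison with the largest mean difference could be named, and any site beyond these was chosen after its values were seen. Motifs in the members themselves were planned but not analysed here, because no genome sequence was used, and RefSeq promoters were read instead. A planned motif and a marker gene are not reported here by name. Python 3.11.15, numpy 2.4.6, scipy 1.17.1, pandas 2.3.3, networkx 3.6.1 and matplotlib 3.10.9 were used.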

Additional observations from a re-analysis of the deposited data

Results flagged for a closer look

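The site 21.7 kb downstream of Gzmb (chr14:56240050-56241090, over the annotated RNA gene Gm24118 near Gzmc) took opposite directions in the 2 libraries. The log2 ratio of other Cd3-positive over Cd3-negative nuclei was 1.37 (0.22 to 2.88) in the control and -1.33 (-2.34 to -0.36) in the knockout library. Between the libraries, the log2 ratio of knockout over control was -0.90 (-1.87 to -0.0039) in other Cd3-positive nuclei, which was not called. In Cd3-negative nuclei it was 1.79 (0.58 to 3.33), which was called. The site held 29 and 7 fragments in these classes of the control and 17 and 22 in those of the knockout library. Of the 310 tested sites it was the only 1 whose intervals excluded 0 in opposite directions. The difference between the libraries was not tested, since each genotype had 1 library.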

How the results depend on the processing

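Counts of called sites are given as higher and lower. Tested sites and the shares over all matched sites moved with the setting as well. A changed count is therefore no result about these sites by itself. Among the alternatives, that share was computed for counts as deposited, a limit of 0.5, no deep nuclei and Cd3-negative nuclei with an ILC marker. For other Cd3-positive against Cd3-negative nuclei, the 37 and 22 of 310 became 22 and 14 of 208 at a minimum of 50 fragments. At a log2 limit of 0.5 they became 53 and 44 of 310. Those were 17.1% and 14.2%, beside 9.78% and 14.9% of all matched sites. For Foxp3-positive against other Cd3-positive nuclei, the 2 and 0 became 3 and 3 with counts as deposited, 3 and 4 without nuclei of over 2 times the median UMIs, 4 and 4 at a log2 limit of 0.5, and 1 higher with a wider T-cell gene set, with Foxp3-positive nuclei that also had a Cd3 UMI, at a minimum of 50 fragments and among sites over 1 kb from every gene. With counts as deposited these were 0.893% each of 336 tested, beside 0.441% and 0.302% of all matched sites. At 0.5 they were 1.39% each of 288, beside 0.593% and 0.306%. For knockout against control in Foxp3-positive nuclei, the 3 and 3 became 10 and 8 with counts as deposited, 9 and 1 with nuclei counted once, 0 and 1 without deep nuclei and also at 50 fragments, and 5 higher at a log2 limit of 0.5. In other Cd3-positive nuclei the 3 and 2 became 5 and 4 with counts as deposited, 7 and 1 with nuclei counted once, 1 higher with the wider gene set, 1 and 0 at 50 fragments, and 9 and 10 at 0.5. With counts as deposited these were 1.47% and 1.17% of 341, beside 2.96% and 1.01% of all matched sites. At 0.5 they were 2.69% and 2.99% of 335, beside 4.22% and 2.21%. In Cd3-negative nuclei the 2 and 1 became 6 and 8 with counts as deposited, 0 and 3 with the wider gene set, 4 higher without deep nuclei, 0 and 0 at 50 fragments, 3 lower at 10 fragments, and 5 and 4 at 0.5. With counts as deposited these were 1.91% and 2.55% of 314, beside 2.98% and 2.24% of all matched sites. At 0.5 they were 1.85% and 1.48% of 271, beside 2.72% and 2.18%.

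Alternatives chosen after seeing the data gave 53 higher and 36 lower of 302 sites against Cd3-negative nuclei with an ILC marker. Those were 17.5% and 11.9%, beside 10.8% and 14.3% of all matched sites under this setting. For all Cd3-negative nuclei, the control library alone gave 53 higher and 37 lower and the knockout library alone 52 and 30. For Foxp3-positive against other Cd3-positive nuclei, the control library alone gave 6 and 14 and the knockout library alone 3 and 1. Per kb of peak width, 4 sites were lower in other Cd3-positive and 2 in Cd3-negative nuclei of the knockout library. The direction turned in 3 cases, all between libraries. The site 91.8 kb upstream of Il21 went to -0.051 in Cd3-negative nuclei with the wider gene set, and in Foxp3-positive nuclei the sites near Ccl5 and Tgfb1 went to -0.93 and -0.0798 without deep nuclei. The cause was not tested. For the named sites of the comparison with Cd3-negative nuclei, 894 values under other settings stayed within their interval and 30 left it, none to the other sign. Many of the 894 could not move. Settings that change only the limits, the set of sites or the Foxp3-positive class leave these ratios as they are. The 30 came from 3 settings that change the nuclei: 13 with Cd3-negative nuclei with an ILC marker, 11 with the wider gene set and 6 without deep nuclei.

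Depth limits the Foxp3-positive class most, with medians of 12 and 20 fragments per site, and the minimum of 20 fragments left 230 of 343 sites testable between libraries there. No paired analysis was possible because each genotype had 1 library.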
